A study of Mus musculus with 15 samples.

Results

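The array used for these samples carries 16194 probes whose annotated name is a stretch of the mouse genome and not a gene. They were taken as all non-control probes named by a chromosome, a start, an end and, for most, a strand letter, and they make up 16194 of the 55681 non-control probes. The names give coordinates on the mm9 build. Probes of this kind are placed on arrays to measure long noncoding RNAs, such as large intergenic transcripts, whose promoters and bodies had been seen in chromatin or transcript maps before they had gene names. Long noncoding RNAs are transcribed and often spliced like messenger RNAs but are not translated. Many are restricted to a cell type, and some act on the chromatin or the genes near their own site. The files give no statement of what each region encodes, so the probes are called region probes here, and whether a region lies inside a known gene was not examined.

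RNA was measured in 5 populations of liver endothelial cells (ECs) of the mouse, with 3 arrays each. EC-SP and EC-MP came from animals of 8 weeks, and the labels abbreviate the populations to SP and MP. The other 3 populations were sorted from adult liver by the surface proteins CD157 and CD200, as CD157+CD200+ cells, CD157-CD200+ cells and, lacking either protein, CD157-CD200- cells. The study looked for a marker of endothelial stem cells by these comparisons. All RNA was amplified before labelling with 1 dye. Strain, sex, gates and the number of animals behind each sample are not given in the sources used here, so the p-values below measure the spread between these samples. In sorted bulk RNA, fewer cells of a type and less RNA per cell cannot be told apart.

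Every level below is a log2 signal relative to the 75th percentile of its array, so that 0 is the 75th percentile and a difference of 1 is a doubling. A probe counted as detected where the software flagged its spot as well above the local background. A probe was called different at an adjusted p under 0.05 (limma with Benjamini-Hochberg adjustment over all features tested). The markers of endothelium were detected on all 15 arrays for 9 of 9 genes. Within a group, arrays correlated at r between 0.939 and 0.957 over region probes, and the median absolute difference between replicates was 0.37 to 0.55 log2 units for region probes against 0.28 to 0.48 for probes of named genes.

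The region probes cover 4610 named regions, 2318 with the suffix F, 2289 with the suffix R and 3 with none. The suffixes are read here as the forward and reverse strand. A region had a median of 3 probes and at most 10, and its span had a median of 10676 bases with quartiles of 1758 and 25866. Some 1067 spans carried probes for both strands, 1251 for F alone and 1222 for R alone. Regions that overlapped or lay within 10000 bases of each other were joined, which gave 1968 loci. Of these, 723 held 1 region, 154 held 5 or more, and the most crowded held 18. Probes of a region share their target and neighbouring regions may belong to 1 transcript, so the counts of probes below are not counts of independent RNAs. No probe sequence was used here, so binding of a probe to related copies of its region elsewhere in the genome was not assessed.

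Most region probes gave signal in these cells. A total of 6703 region probes (41.4%) were detected on all 15 arrays and 2843 (17.6%) on none, against 54.8% and 15.6% of the probes of named genes. At least 1 probe was detected on all 15 arrays for 2980 regions (64.6%). On average 60.7% ± 6.13 (SD, n = 3) of region probes were detected in EC-SP and 62.9% ± 3.24 in EC-MP. The shares were 58.6% ± 4.37 in CD157+CD200+, 59.8% ± 2.11 in CD157-CD200+ and 56.8% ± 5.54 in CD157-CD200-. No difference in this share or in the median level of the region probes passed a test in the 4 comparisons. Exact two-sided permutation tests gave adjusted p = 0.9 over 8 tests, and 3 arrays against 3 cannot go below 0.1 unadjusted. Over same-numbered arrays the median level was lower in EC-SP than in EC-MP in 3 of 3 pairs, with a mean difference of -0.11, and lower in CD157+CD200+ than in CD157-CD200+ in 3 of 3, with a mean of -0.09. The exact two-sided sign-flip test gave p = 0.25 for each, the smallest that 3 pairs allow, and with normexp background correction the pairs differed in sign. On each array the share was lower among region probes than among probes of named genes, as the plot of detection by array shows. Probes bind with different strength, so this is a count of probes above background and not a comparison of RNA amounts.

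**Figure D1:**
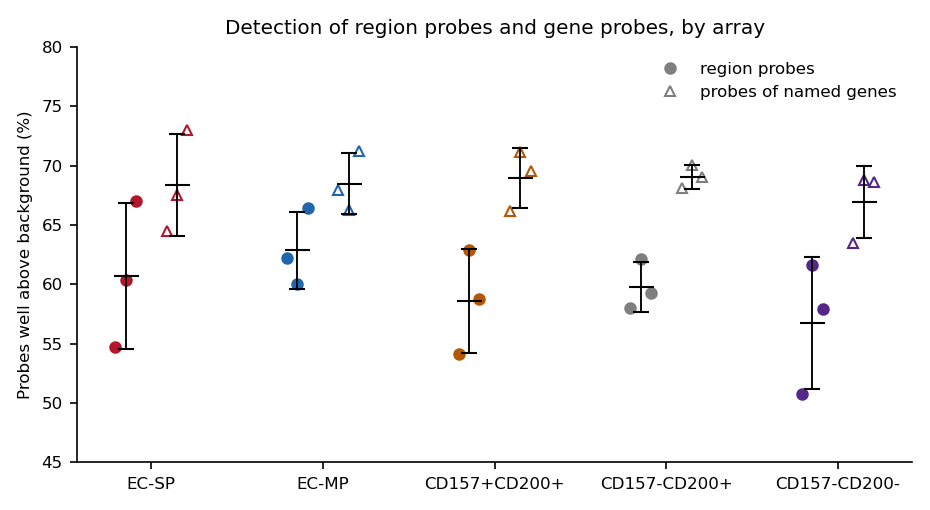
Share of probes called well above background (percent, axis from 45 to 80), by population, for region probes (filled circles) and probes of named genes (open triangles); each symbol is 1 array, and the bar and whiskers are the mean and SD of 3 arrays. Region probes average 56.8% to 62.9% by population and gene probes 66.9% to 69.1%.

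The 8 region probes with the highest signal, at most 1 per locus, were bright in every population and none of them was called different in any comparison. Their order compares signals and not RNA amounts, and the 6 arrays of EC-SP and EC-MP were read with another scanner and software version than the 9 subset arrays. Probe A_30_P01018681 lies in chr5:125861675-125880125, suffix F. It gave 9.76, 9.50 and 9.70 in EC-SP, 9.22, 8.78 and 9.06 in EC-MP, and between 8.93 and 9.55 on the 9 subset arrays. Its difference of 0.64 between EC-SP and EC-MP had an adjusted p of 0.0945 (limma). The region chr19:5801802-5802597 (suffix R) had all 3 of its probes detected on all 15 arrays, the brightest, A_30_P01031754, between 8.39 and 9.79. Probe A_30_P01018010 in chr17:39960567-39992817 (suffix R) ranged from 8.42 to 9.32 and A_30_P01031375 in chr7:108209996-108216032 (suffix F) from 8.10 to 9.27. The other 4 lie in chr7:82902248-82955248 (F), chr6:92040526-92041319 (F), chr5:52461266-52541416 (R) and chrX:33750475-33770425 (F), with lowest values of 8.09, 8.15, 8.30 and 7.68. These are single probes, and others of the same region could be far dimmer. The dimmest probe of the 8 regions, in the order given, averaged 2.93, 6.58, 1.94, 8.63, -3.89, -2.22, -4.62 and 1.62 over the 15 arrays. In chr6:92040526-92041319, 2 of the 3 probes were called lower in EC-SP than in EC-MP. No other region of the 8 had a called probe.

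The first comparison set EC-SP against EC-MP. Of 9406 region probes tested, the test called 1387 (14.7%). The level was higher in EC-SP for 557 of them and lower for 830. Over all 29913 features tested, the region probes among them, the share called was 16.2%, with 8.5% called higher and 7.7% lower. Among named genes it was 18.8%. With 1 probe per region, an alternative chosen after seeing the data, 11.4% of region probes were called against 16.7% of all features. The direction of the calls differed: 40.2% of the called region probes were higher in EC-SP, against 58.6% of the called named genes. The split of the region probes depends on the scaling. The authors' deposited series table gave 371 higher and 1123 lower region probes, or 24.8% higher, while shifting the median of all features by -0.17. Whether the difference from the named genes also depends on the scaling was not tested. The count fell to 888 without EC-SP replicate 2 and to 901 without EC-MP replicate 2. These were 9.30% and 9.16% of region probes tested, against 10.5% and 10.4% of all features.

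The markers of cell types moved in this comparison too. All 10 sinusoidal endothelial markers were called lower in EC-SP, with a mean level of -0.34 to -0.08 in EC-SP and 3.82 to 4.56 in EC-MP. Of the 9 large-vessel endothelial markers 5 were higher in EC-SP and none lower, and their mean level was 4.37 to 4.77 against 2.48 to 3.28. Of 7 bile duct markers 4 were higher, at 0.22 to 0.43 against -1.48 to -1.01. Their part in the region probes' differences was not tested. The hepatocyte markers were at -0.90 to -0.61 against -0.77 to -0.56, with 3 of 8 tested higher and 2 lower.

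The largest fitted increase in EC-SP was in chr1:183783306-183834531, suffix F, a span of 51226 bases with 10 probes, all called. Probe A_30_P01030274 gave 1.64, 1.58 and 2.11 in EC-SP and -3.68, -2.85 and -2.71 in EC-MP. The groups did not overlap, and the difference was 4.86 ± 0.31 (SE, n = 3, adjusted p = 5.19e-05). A second probe, A_30_P01031061, gave 3.49, 3.08 and 3.38 against -1.87, -0.90 and -1.53. Of the 10 probes, 4 were detected on none of the 3 EC-MP arrays, and the differences of the other 6 ran from 3.69 to 4.86.

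The same region stood apart in the other sort, on arrays that share no sample with these. Its mean over 10 probes was -0.09, 0.08 and -0.04 in CD157+CD200+, -0.71, -0.85 and -0.55 in CD157-CD200+, and -3.39, -2.73 and -3.08 in CD157-CD200-. The values of CD157-CD200- were below all others. Between CD157+CD200+ and CD157-CD200-, 9 of the 10 probes were called higher, and between CD157-CD200+ and CD157-CD200- 8 of 10 were. In CD157-CD200- 4 of the 10 were detected on all 3 arrays, 5 on 1 or 2 and 1 on none. Between the 2 CD200+ subsets none of the 10 was called, and the median difference was 0.72.

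Probe A_30_P01025416 in chr11:79531768-79532127 (F) was called higher in EC-SP and was too dim in the subsets to be tested there. It gave -0.85, -1.33 and -1.22 in EC-SP and -6.03, -5.70 and -5.15 in EC-MP, where none of the 3 arrays detected it. The level in EC-SP exceeded it by at least 6.74-fold (adjusted p = 5.13e-05 for the fitted difference), a bound set against the lowest detected signal of each EC-MP array, as for every bound given here. The 3 probes of that region were all called higher. The 1 of them tested in the subsets differed by 0.23 between CD157+CD200+ and CD157-CD200- and was not called.

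The region chr9:78107225-78118850 (R) held a probe called in opposite directions in the 2 sorts. Of its 5 probes, 4 were called higher in EC-SP, and A_30_P01023273 gave -0.65, -0.11 and -1.27 in EC-SP against -4.75, -4.27 and -6.04 in EC-MP, at least 9.27-fold (adjusted p = 0.000591). Among the subsets 4 probes were tested, with differences of -1.03 to -0.59 between CD157+CD200+ and CD157-CD200-, 1 of them, A_30_P01033583, called lower at -0.92.

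Of the 6 probes with the largest fitted decreases in EC-SP, 3 lie near each other on chromosome 8, 2 on chromosome 10 and 1 on chromosome 3. In chr8:70623390-70645212 (R) all 3 probes were called lower. Probe A_30_P01025612 gave -5.52, -3.01 and -3.60 in EC-SP and 0.80, 0.23 and 0.39 in EC-MP, a difference of -4.52 ± 0.56 (adjusted p = 0.00111, detected on 2 of the 3 EC-SP arrays). For A_30_P01018244, which none of the 3 EC-SP arrays detected, the EC-MP level exceeded that of EC-SP by at least 16.6-fold (adjusted p = 0.00084). The region chr8:70603786-70604243 (R), with 1 probe, had a level in EC-MP at least 6.48-fold above that in EC-SP (adjusted p = 8.01e-05). All 3 probes of chr8:70623390-70645212 were also called lower in CD157+CD200+ than in CD157-CD200-, the 2 detected on every subset array by -3.09 and -2.65, and CD157-CD200+ lay between them with region means of -1.76, -1.67 and -2.26. That region gave -3.32, -3.45 and -3.05 in CD157+CD200+ and 0.23, 0.89 and -0.08 in CD157-CD200-.

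On chromosome 10, chr10:8606683-8665783 (F) had 4 probes tested and all 4 called lower in EC-SP. Probe A_30_P01028422 gave -5.05, -4.90 and -2.56 in EC-SP and 1.20, 0.97 and 0.27 in EC-MP, a fitted difference of -4.98 ± 0.61 (adjusted p = 0.00105), with 1 of the 3 EC-SP arrays detecting it. Replicate 3 of EC-SP was the highest of its group and still below every EC-MP array. The last of these 6 probes, A_30_P01021493 in chr3:93564825-93576725 (F), gave -5.10, -5.78 and -3.98 against -0.58, -1.14 and -0.58 (fitted difference -4.18 ± 0.43, adjusted p = 0.000453) and was detected on 1 of the 3 EC-SP arrays.

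The loci given next are the 4 with the most probes called in 1 direction between EC-SP and EC-MP. A shared direction was thus part of their choice. The locus chr8:19678750-20038750 holds 13 regions on both strands, and 20 of its 32 tested probes were higher in EC-SP and none lower. Its mean over the tested probes was -0.47, -0.35 and -0.27 in EC-SP and -1.16, -1.52 and -1.54 in EC-MP, and its subset arrays lay between -1.79 and -1.51 with 4 of 31 probes called between CD157+CD200+ and CD157-CD200-. Its brightest called probe, A_30_P01021174, differed by 1.22 ± 0.21 (adjusted p = 0.00496). In chr4:131734714-131742542 20 of 26 probes were higher and none lower, with means of 0.24, 0.34 and 0.45 against -0.67, -0.77 and -0.90. Its brightest called probe, A_30_P01022640, differed by 1.61 ± 0.38 (adjusted p = 0.0206) and was not called without EC-SP replicate 1, 2 or 3 (adjusted p = 0.0574, 0.0585 and 0.0606, with 0.00778 to 0.076 over the alternatives). No probe of that locus was called among the subsets.

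In chr2:75444518-75497268 17 of 32 tested probes were lower in EC-SP and none higher, with means of -2.58, -2.61 and -2.32 against -1.11, -1.06 and -1.11. Its brightest called probe, A_30_P01026125, differed by -2.004 ± 0.27 (adjusted p = 0.00168). The locus chr1:138442536-138632310, with 18 regions and 78 probes the most crowded, changed in both directions. Of its 47 tested probes 17 were higher and 8 lower in EC-SP, and its mean hardly differed, at -1.48, -1.35 and -1.30 against -1.67, -1.46 and -1.71. The 17 higher probes belong to 2 of its regions. The brightest of them, A_30_P01026160, differed by 1.37 ± 0.29 (adjusted p = 0.013, and 0.0546 without EC-MP replicate 2, over a range of 0.00551 to 0.0546).

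**Figure D2:**
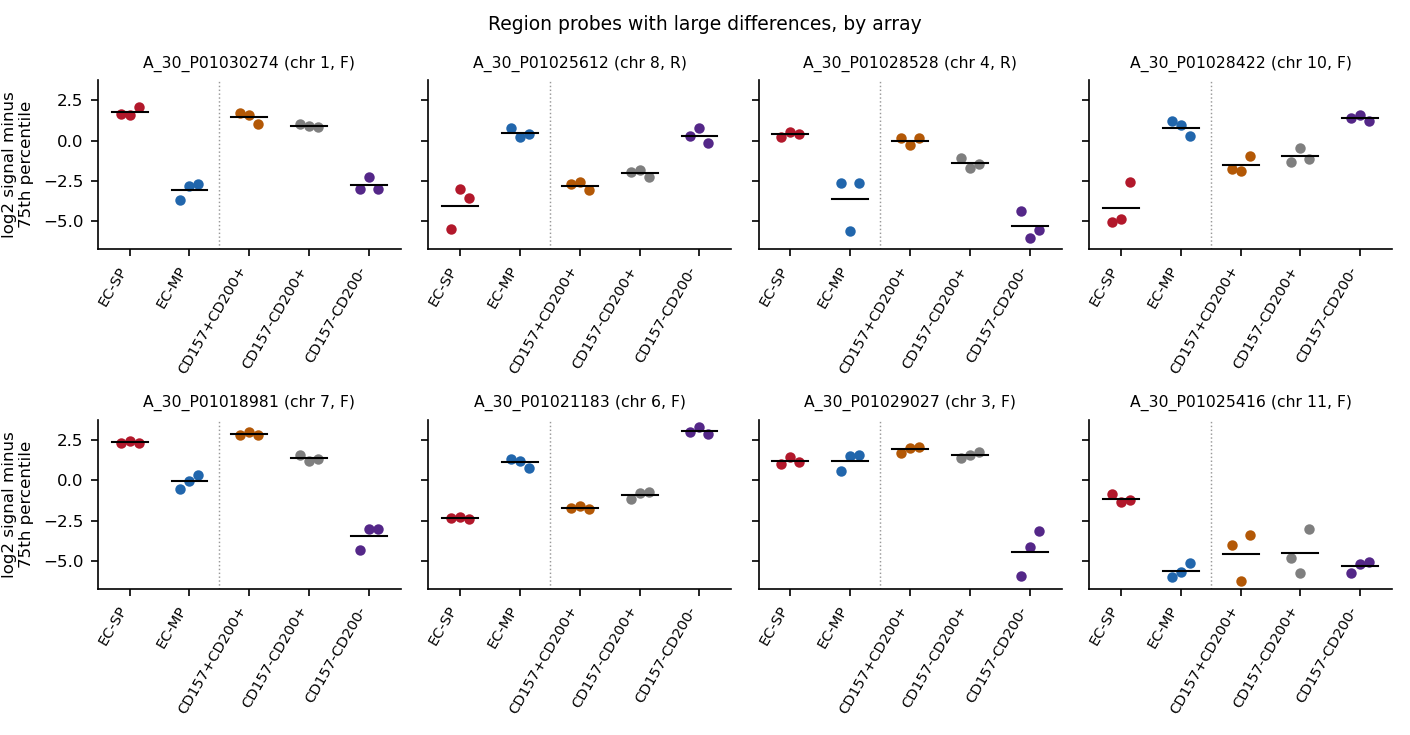
Normalised log2 signal of 8 region probes on each array, by population; each point is 1 array, the line is the mean of 3, and the dotted line divides 2 sets of arrays read on different scanners, across which levels are not compared. A_30_P01030274, A_30_P01018981 and A_30_P01028528 are higher in EC-SP than in EC-MP and in CD157+CD200+ than in CD157-CD200-, A_30_P01025612, A_30_P01028422 and A_30_P01021183 are lower, A_30_P01029027 is lower in CD157-CD200- than in the other subsets and A_30_P01025416 is higher in EC-SP than in EC-MP.

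The second comparison set CD157+CD200+ against CD157-CD200-. Of 8988 region probes tested, the test called 885 (9.85%). In CD157+CD200+ the level was higher for 373 and lower for 512. The share over all features was 13.9%, with 7.03% higher and 6.83% lower, and among named genes it was 18.5%. With the replicate number, which here is also the slide, as a block, 1886 region probes were called, 867 higher and 1019 lower, against 26.7% of all features. Within each quartile of signal level the share called was lower for region probes than for named genes, at 10.5% against 20.2% in the dimmest and 11.6% against 17.7% in the brightest. The lower share was thus present among bright probes as well.

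Markers moved with this comparison as well. All 9 large-vessel markers were higher and all 10 sinusoidal markers lower in CD157+CD200+. Of 8 tested hepatocyte markers 6 were lower, at a mean level of -0.37 to 0.11 in CD157+CD200+ and 1.01 to 1.33 in CD157-CD200-. Of 6 tested Kupffer cell markers 5 were lower, at -3.27 to -2.75 against -1.51 to -0.60, and Timd4 was detected on no array. Their part in the region probes' differences was not tested.

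The largest fitted increases in CD157+CD200+ were in 3 places, each with probes at or near background in CD157-CD200-. In chr3:86827945-86886695 (F) probe A_30_P01029027 gave 1.73, 2.01 and 2.06 in CD157+CD200+, 1.38, 1.56 and 1.79 in CD157-CD200+, and -5.98, -4.13 and -3.18 in CD157-CD200-, where 1 of the 3 arrays detected it. Its fitted difference between CD157+CD200+ and CD157-CD200- was 6.36 ± 0.56 (adjusted p = 5.2e-05) and between CD157-CD200+ and CD157-CD200- 6.01 ± 0.56 (adjusted p = 0.000103). All 3 tested probes of the region were called in both, and none was called between the 2 CD200+ subsets, at 0.35 to 0.36. Between EC-SP and EC-MP the same 3 probes differed by -0.34 to 0.14 and none was called, with A_30_P01029027 at 1.04, 1.45 and 1.14 against 0.60, 1.52 and 1.58.

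The span chr7:13533925-13544525 carries 1 probe for each strand, and both were called. The F probe, A_30_P01018981, gave 2.82, 3.02 and 2.84 in CD157+CD200+, 1.61, 1.21 and 1.35 in CD157-CD200+ and -4.32, -3.02 and -3.06 in CD157-CD200-, where 2 arrays detected it. The 3 subsets did not overlap, and the difference between the outer ones was 6.36 ± 0.33 (adjusted p = 1.68e-06). The R probe, A_30_P01031837, fell in the same order with a fitted difference of 5.84 ± 0.46 (adjusted p = 2.52e-05) and was detected on 1 of the 3 CD157-CD200- arrays. Both were also higher in EC-SP than in EC-MP, by 2.45 and 2.29.

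In chr4:146156575-146175425 (R) A_30_P01028528 gave 0.17, -0.30 and 0.13 in CD157+CD200+, -1.05, -1.68 and -1.48 in CD157-CD200+, and -4.38, -6.07 and -5.58 in CD157-CD200-, where none of the 3 arrays detected it. Its level in CD157+CD200+ was at least 14.6-fold that in CD157-CD200- (adjusted p = 1.53e-05). In the other sort it gave 0.22, 0.53 and 0.42 in EC-SP against -2.66, -5.62 and -2.66 in EC-MP (difference 4.04 ± 0.70, adjusted p = 0.00547). A second probe of the region, A_30_P01023018, exceeded its CD157-CD200- level in CD157+CD200+ by at least 9.64-fold (adjusted p = 1.6e-06). The region was not uniform, since 3 of its 4 tested probes rose and 1 fell, at -0.74.

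The largest decrease in CD157+CD200+ among probes detected on every array was in chr6:4841700-4847400 (F), where all 5 probes were called. Probe A_30_P01021183 gave -1.72, -1.58 and -1.81 in CD157+CD200+, -1.15, -0.79 and -0.73 in CD157-CD200+, and 2.99, 3.29 and 2.90 in CD157-CD200-. Its difference was -4.77 ± 0.19 (adjusted p = 5.65e-07), and that of A_30_P01022834 was -4.61 ± 0.19 (adjusted p = 5.65e-07). All 5 were also lower in EC-SP than in EC-MP, with differences of -3.64 to -2.39 and region means of -0.26, -0.46 and -0.70 against 3.21, 2.65 and 1.92.

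Further decreases lay on chromosomes 8 and 10, in or overlapping regions named above, and on chromosomes 13 and 2. Probe A_30_P01018244 in chr8:70623390-70645212 had a CD157-CD200- level at least 15.9-fold above that in CD157+CD200+ (adjusted p = 3.62e-05). Probe A_30_P01026933 in chr10:8662761-8665101 (R), which overlaps the F region of chromosome 10, had a level there at least 5.46-fold above (adjusted p = 0.0013). Probe A_30_P01031047 in chr13:78341864-78375825 (R) had one at least 3.72-fold above (adjusted p = 0.00155), and 5 of the 6 probes of its region were called lower in CD157+CD200+. Probe A_30_P01027743 in chr2:128142035-128142481 (R) gave 1.17, -2.07 and -2.71 in CD157-CD200- against -5.88, -3.89 and -6.08. It was detected on 1 of the 3 CD157+CD200+ arrays. Its fitted difference of -4.08 ± 0.98 (adjusted p = 0.0207) was not called without CD157+CD200+ replicate 1 (adjusted p = 0.0803) or replicate 3 (0.0724), and over all alternatives its adjusted p ranged from 0.0139 to 0.0879 (limma).

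The loci given next were likewise picked for the most probes called in 1 direction, here between CD157+CD200+ and CD157-CD200-. In chr1:175653557-175672031 all 16 probes were lower in CD157+CD200+ than in CD157-CD200-, and all 16 were lower in CD157-CD200+ too. Its means were 1.27, 1.40 and 1.36 in CD157+CD200+, 0.67, 1.02 and 0.86 in CD157-CD200+, and 3.32, 3.52 and 3.67 in CD157-CD200-. Between EC-SP and EC-MP none of the 16 was called, with means of 2.31, 2.36 and 2.69 against 2.75, 2.67 and 2.14. The brightest called probe, A_30_P01030969, differed by -1.27 ± 0.17 between CD157+CD200+ and CD157-CD200- (adjusted p = 0.000669) and by -1.63 ± 0.17 between CD157-CD200+ and CD157-CD200- (adjusted p = 0.00018).

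In chr10:3227840-3233588 all 15 probes were lower in CD157+CD200+ and 14 of 15 were lower in EC-SP. Its means were -2.46, -2.11 and -1.91 in CD157+CD200+, -2.02, -1.82 and -1.83 in CD157-CD200+, and -0.31, 0.11 and 0.04 in CD157-CD200-. In chr11:95627874-95658549 26 of 37 probes were lower in CD157+CD200+ and 22 in CD157-CD200+, and none was higher. Its means were -0.36, -0.16 and -0.19 in CD157+CD200+, 0.02, 0.33 and -0.03 in CD157-CD200+, and 1.06, 1.28 and 0.83 in CD157-CD200-. The locus around chr10:8606683-8665783 had all 11 tested probes lower in CD157+CD200+ and 9 of 10 lower in EC-SP.

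The 3 regions with no strand suffix had 13 probes, of which 6 were tested in the subsets. All 5 probes of chr17:12941161-12944859 were called higher in CD157+CD200+ and in CD157-CD200+ than in CD157-CD200-, where 1 of the 5 was detected on none of the 3 arrays. The means were -1.79, -1.49 and -2.02 in CD157+CD200+, -1.89, -1.28 and -1.69 in CD157-CD200+, and -4.54, -4.05 and -3.46 in CD157-CD200-. No probe of that region was called between EC-SP and EC-MP, where 3 were tested. This region was singled out after its values were seen.

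The third comparison set the 2 CD200+ subsets against each other, to ask what differs with CD157. The test called only 18 of 8988 region probes (0.2%), with CD157+CD200+ the higher for 6 and the lower for 12, against 0.825% of all features and 1.41% of named genes. With normexp background correction it was 14 higher and 7 lower. At an unadjusted p under 0.05 there were 686 region probes, and with the replicate block 106 were called, 41 higher and 65 lower, against 2.32% of all features. The count of region probes fell without any 1 array of either CD200+ subset, and so did the share over all features. It was 2 without CD157+CD200+ replicate 1, 4 without its replicate 2 and 11 without its replicate 3. The shares over all features were then 0.281%, 0.281% and 0.527%. Without CD157-CD200+ replicates 1, 2 and 3 the count was 1, 4 and 9, against 0.249%, 0.327% and 0.448% of all features. Without CD157-CD200- replicates 1 and 2 it was 11 and 21, against 0.717% and 0.841%. Of the 10 sinusoidal markers 3 were called lower in CD157+CD200+ and none higher, at a mean level of 1.13 to 1.29 against 1.94 to 2.09, and no large-vessel marker was called. Their part in the result was not tested.

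Probe A_30_P01023018 on chromosome 4 had the lowest adjusted p of the 6 higher probes. It gave -0.68, -0.40 and -0.70 in CD157+CD200+ and -3.26, -2.17 and -2.49 in CD157-CD200+ (difference 2.05 ± 0.27, adjusted p = 0.00962). Without CD157+CD200+ replicate 1 or 2 its adjusted p was 0.0521 or 0.0565, with a range over the alternatives of 0.00256 to 0.0565. The other 5 higher probes lie in chr15:73342136-73342235 (F), chr4:145662641-145669641 (F), chr13:28760289-28977218 (R), chr16:84708695-84708806 (F) and chr5:149775338-149781472 (R). The first was detected on none of the CD157-CD200+ arrays and its level in CD157+CD200+ was at least 1.81-fold higher, and the other 4 differed by 1.17 to 1.73. Each of these calls was lost without some array, A_30_P01032044 on chromosome 15 (adjusted p from 0.011 to 0.396 over the alternatives), A_30_P01028789 on chromosome 4 (0.0106 to 0.0932), A_30_P01020941 on chromosome 13 (0.0254 to 0.154), A_30_P01032196 on chromosome 16 (0.0185 to 0.179) and A_30_P01028468 on chromosome 5 (0.0151 to 0.871).

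Of the lower probes, A_30_P01017838 in chr8:113968152-113973727 (R) gave -5.87, -4.82 and -6.05 in CD157+CD200+ and -3.43, -3.43 and -3.52 in CD157-CD200+. The level in CD157-CD200+ exceeded it by at least 1.44-fold (adjusted p = 0.0121, and 0.0739, 0.0673 and 0.0584 without CD157+CD200+ replicate 1 and CD157-CD200+ replicates 1 and 2, over a range of 0.00424 to 1). Other lower probes lay in chr8:70623390-70645212 (R), chr15:79764481-79809909 (R), chr3:30754871-30776438 (F), chr7:107226916-107227672 (R) and chr1:158979050-159007700 (R). Of these 5, A_30_P01028172 on chromosome 3 differed by -1.56 and was detected on 2 of the 3 CD157+CD200+ arrays. CD157+CD200+ arrays detected none of the other 4, whose CD157-CD200+ levels were at least 2.78-fold higher for A_30_P01018244, 2.44-fold for A_30_P01027095 on chromosome 15, 1.34-fold for A_30_P01021334 on chromosome 7 and 1.62-fold for A_30_P01022838 on chromosome 1. In all 6 the call was lost with normexp background correction and on leaving out any of several single arrays. That of A_30_P01022838 was lost in 15 of 18 alternatives, the replicate block among them (adjusted p = 0.058). The only locus with 2 calls was chr4:119405156-119461821, where 2 of 7 probes were lower in CD157+CD200+ and 6 of 7 were lower in EC-SP than in EC-MP. Its means were -2.76, -2.59 and -2.27 in CD157+CD200+, -1.86, -1.60 and -1.34 in CD157-CD200+, and -1.53, -0.71 and -1.10 in CD157-CD200-.

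The last comparison set CD157-CD200+ against CD157-CD200-, that is, CD200 among cells without CD157. Of 8988 region probes the test called 676 (7.52%), with CD157-CD200+ the higher for 372 and the lower for 304, against 10.8% of all features (5.73% higher and 5.1% lower) and 14.8% of named genes. With the replicate block 1439 were called, 784 higher and 655 lower, against 20.3% of all features. The count was 393 without CD157-CD200+ replicate 1 and 438 without CD157-CD200- replicate 1. These were 4.22% and 4.68% of region probes tested, against 7.25% and 7.72% of all features. This comparison shares its CD157-CD200- arrays with the second, so their values are given side by side and not correlated. All 9 large-vessel markers were higher in CD157-CD200+, at a mean level of 4.83 to 5.14 against -1.30 to -0.93, and 9 of 10 sinusoidal markers were lower, at 1.94 to 2.09 against 5.75 to 6.16. Hepatocyte markers fell for 7 of 8 and Kupffer cell markers for 4 of 6. The part of these markers in the result was not tested.

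Besides the probes on chromosomes 3, 4 and 7 already given, A_30_P01018336 in chr3:21964899-21974524 (R) exceeded its CD157-CD200- level in CD157-CD200+ by at least 5.04-fold (adjusted p = 0.00198). It gave -1.15, -2.004 and -1.43 against -3.85, -6.30 and -6.16, and 4 of the 5 probes of its region were called. Among decreases, both tested probes of chr8:70719179-70719686 (F) were lower in CD157-CD200+, A_30_P01033660 giving -4.35, -6.10 and -4.76 against -2.59, -1.38 and -1.30. The level of that probe in CD157-CD200- exceeded it by at least 4.93-fold (adjusted p = 0.00157).

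The middle population lay nearer to CD157+CD200+ for most region probes that separated the outer subsets. Among the 373 probes called higher in CD157+CD200+ than in CD157-CD200-, CD157-CD200+ stood at a median of 0.85 of the way from CD157-CD200- to CD157+CD200+, and 330 were past the midpoint. Among the 512 called lower the median was 0.74 and 391 were past the midpoint. For named genes the medians were 0.80 and 0.86. These fractions use the arrays that chose the probes and are a description.

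**Figure D3:**
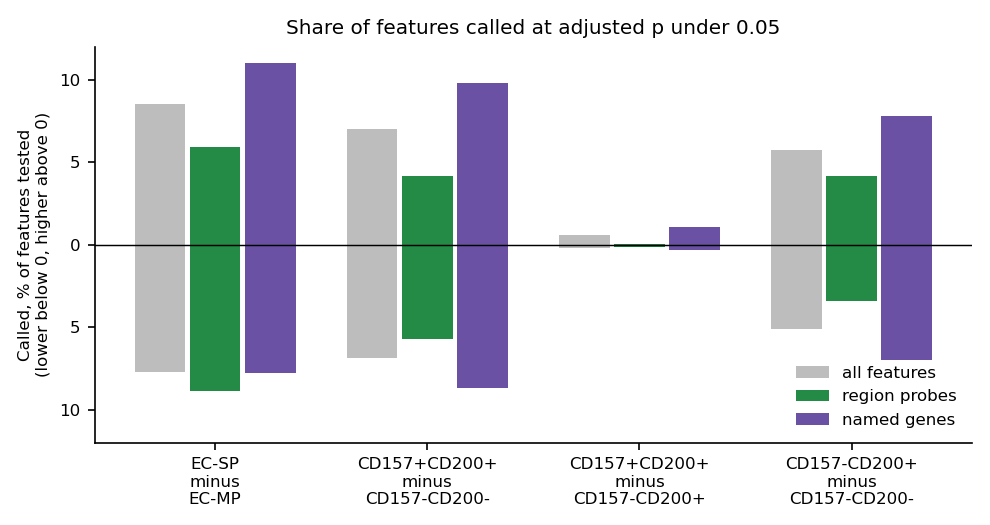
Share of features called at an adjusted p under 0.05 (percent of those tested, higher above 0 and lower below 0) in each comparison, for all features, region probes and named genes; bars start at 0 and the first-named population of a comparison is the one that is higher or lower. Region probes were called less often than named genes in every comparison, with 9.85% against 18.5% between CD157+CD200+ and CD157-CD200-, except for decreases in EC-SP, where the shares were 8.82% and 7.76%.

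Probes of a region mostly changed in the same direction. Between EC-SP and EC-MP, 325 regions had 2 or more calls, of which 131 were all higher, 190 all lower and 4 mixed. Between CD157+CD200+ and CD157-CD200- the numbers were 87 higher, 110 lower and 5 mixed of 202, and between CD157-CD200+ and CD157-CD200- 84, 71 and 3 of 158. Of 245 loci with 2 or more calls in the first comparison, 17 had calls in both directions, and in the second and the last it was 6 of 159 and 3 of 135.

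Of 847 spans tested on both strands between EC-SP and EC-MP, 80 had a call on F alone, 81 on R alone and 116 on each strand. Among those 116, in 112 all calls had the same direction while in 2 the strands were opposite. Between CD157+CD200+ and CD157-CD200- 63 spans had a call on F alone, 61 on R alone and 60 on both, and of the 60 the strands agreed in 57 and were opposite in 1. The labels do not say whether the labelled cDNA kept the strand of the RNA, so transcription from both strands and loss of the strand in labelling cannot be told apart. The shares called were alike for the F and R suffixes, at 14.7% and 14.8% between EC-SP and EC-MP and 9.83% and 9.76% between CD157+CD200+ and CD157-CD200-.

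Detection was alike on the 2 strands in most overlapping pairs and differed in the rest. Of 2418 pairs of overlapping F and R regions, 1371 had a probe detected on all 15 arrays on both strands, 812 on 1 strand and 235 on neither. Among the 1067 pairs with the same start and end the numbers were 659, 301 and 107. Detection on 1 strand alone thus held for 33.6% and 28.2% of pairs. Over all regions, 64.6% had a probe detected on all 15 arrays, and how often unrelated regions would differ was not tested. The pairs named next were picked for the largest or the smallest difference in mean level between strands. Those with 1 strand detected differ in length, so strand was not the only difference between them. In chr6:47915313-47974138 the F probe was detected on all 15 arrays, and no probe of the R regions chr6:47969966-47970583 and chr6:47917337-47917697 inside it was. In chr15:33966641-34004891 it was the R strand that was detected, and not the F region chr15:33983510-33985015. In chr12:119825125-119850750 the F probe was detected on all 15 arrays and no probe of the overlapping R region chr12:119836655-119984828. Both strands were detected in chr15:68161768-68193518, chr19:27448093-27462793 and chr13:73472571-73483846, where the F and R spans are the same. Levels of different probes are not set against each other, since probes bind with different strength.

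The agreement between probes was higher within a region than at the widest gaps, but it did not fall at every step. Across pairs of region probes on the same strand of a region the log2 differences between EC-SP and EC-MP correlated at r = 0.71 (13301 pairs), and across opposite strands of a span at 0.60 (11360 pairs). Across other overlapping spans r was 0.50 (14957 pairs), and for gaps up to 10000 bases 0.20 (3517 pairs). It was 0.25 for gaps over 10000 and up to 50000 bases (7114 pairs). For gaps over 50000 and up to 200000 bases r was 0.20 (12020 pairs), and for gaps above that, up to 500000 bases, it was -0.01 (15828 pairs). Between CD157+CD200+ and CD157-CD200- the values in the same order were 0.71, 0.59, 0.51, 0.60, 0.44, 0.17 and -0.03. The pairs share arrays, and a probe enters many pairs, so these are descriptions.

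**Figure D4:**
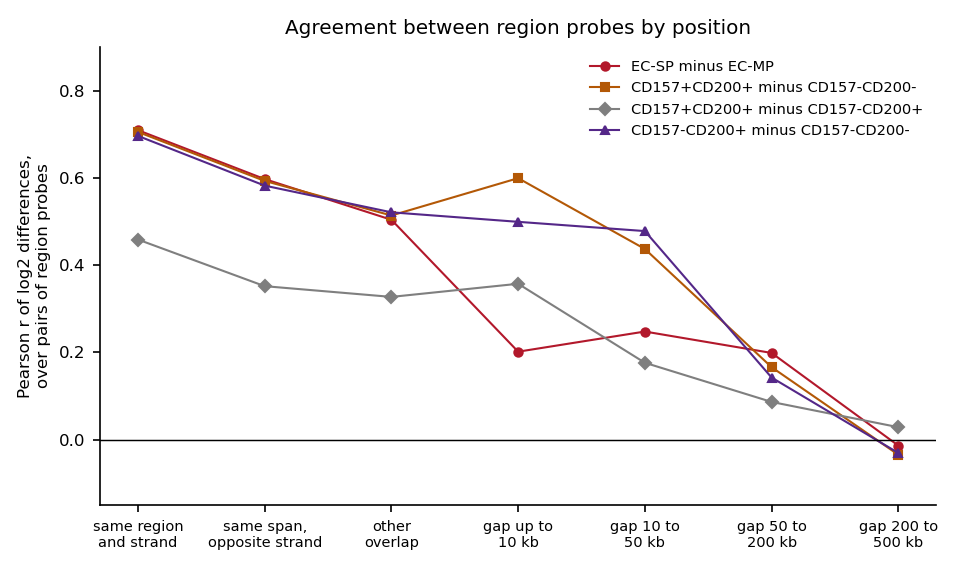
Pearson correlation of the log2 differences of pairs of region probes, by their relative position (gap between spans in kilobases), for the 4 comparisons. The correlation is highest within a region (0.46 to 0.71) and between -0.03 and 0.03 at the widest gaps.

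The shares called in regions under 2000 bases, from 2000 to 20000 bases and above were 16.9%, 15.5% and 12.8% between EC-SP and EC-MP. They were 9.24%, 10.8% and 8.93% between CD157+CD200+ and CD157-CD200- and 6.13%, 8.55% and 6.81% in the last comparison, so the order differed between comparisons. Over the chromosomes the share called between EC-SP and EC-MP ran from 5.96% on chromosome X (17 of 285) to 22.2% on chromosome 10 (81 of 365). On chromosome 5, 63 of 78 called probes were higher in EC-SP, from 16 loci, and on chromosome 2, 81 of 101 were lower, from 25 loci. Between CD157+CD200+ and CD157-CD200- chromosome 10 again had the highest share, at 19.9% (70 of 351, from 8 loci higher and 11 lower), and chromosome 7 the lowest, at 2.98% (12 of 403). On chromosome 11, 26 of the 69 calls came from 1 locus, and on chromosome 10 at most 15 of the 70.

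The sort into EC-SP and EC-MP and the sort by CD157 and CD200 share no arrays, so their differences were set against each other. Among 8452 region probes tested in both, 1210 were called between EC-SP and EC-MP and 808 between CD157+CD200+ and CD157-CD200-. In common were 290, or 24.0% of the first list and 35.9% of the second, and for named genes the common calls made up 48.8% and 50.6%. Over all features of its fit, 13.9% were called between CD157+CD200+ and CD157-CD200-, the share to set beside the first list. Between EC-SP and EC-MP it was 16.2%, to set beside the second. Among region probes alone these shares were 9.85% and 14.7%, and among named genes 18.5% and 18.8%. The base shares were thus lower for region probes, so the common shares of region probes and named genes are not compared directly. None of these base shares is limited to features tested in both sorts. Of the 290, 95 were higher and 175 lower in both EC-SP and CD157+CD200+, and 20 had opposite directions. The log2 differences correlated at r = 0.46 over the 8452 region probes and at r = 0.60 over 13608 named genes, where neighbouring probes are not independent.

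The 20 probes with opposite directions came from 10 loci. In chr9:14460976-14488051, 5 probes on both strands were higher in EC-SP than in EC-MP and lower in CD157+CD200+ than in CD157-CD200-. Probe A_30_P01020075 of that span differed by 2.34 ± 0.25 (adjusted p = 0.000619) and by -1.18 ± 0.27 (adjusted p = 0.0182). In chr3:96074625-96086375, 4 probes on both strands did the same, A_30_P01027709 by 2.70 ± 0.58 (adjusted p = 0.014) and -2.47 ± 0.45 (adjusted p = 0.00507). The reverse held for A_30_P01026487 in chr15:68924889-68931607 (R), at -3.17 ± 0.75 (detected on 1 of the 3 EC-SP arrays) and 1.99 ± 0.35 (adjusted p = 0.0219 and 0.0039). These examples were chosen after their values were seen.

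**Figure D5:**
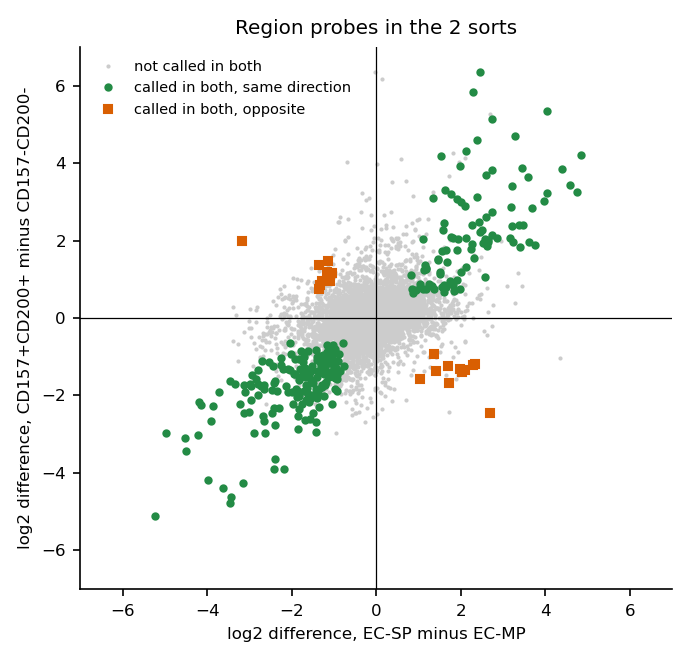
Log2 difference of each of 8452 region probes between EC-SP and EC-MP (horizontal) and between CD157+CD200+ and CD157-CD200- (vertical). Green circles are the 270 probes called in both in the same direction, orange squares the 20 called in opposite directions, and grey points the rest.

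Long noncoding RNAs that carry a gene name gave a smaller reference. Of 64 such genes listed, 35 were on the array and 28 were tested. Between EC-SP and EC-MP 3 rose and 2 fell in EC-SP, against 8.5% and 7.7% of all features, with a median difference of -0.08 against -0.01. Mir17hg, the host transcript of the miR-17-92 microRNA cluster, gave -0.55, 0.12 and 0.34 in EC-SP and -3.03, -2.37 and -2.59 in EC-MP (difference 2.63 ± 0.30, adjusted p = 0.000784). Crnde, a long noncoding RNA first described in colorectal tumours, gave -0.51, -1.54 and -0.91 against -2.59, -2.56 and -2.96 (1.71 ± 0.30, adjusted p = 0.00576). The other 3 calls were smaller and each was lost without single arrays: Snhg6, a small nucleolar RNA host gene, at 0.79 (adjusted p from 0.0079 to 0.112 over the alternatives), Peg13, an imprinted noncoding RNA, at -0.87 (0.00486 to 0.0811), and Firre, an X-linked noncoding RNA that binds chromatin (0.017 to 0.932). Firre was detected on none of the 3 EC-SP arrays, and its EC-MP level was at least 1.38-fold higher. Among the subsets limma called none of the 28 in any of the 3 comparisons, while 5, 1 and 2 had an unadjusted p under 0.05. With the replicate block it called 4 between CD157+CD200+ and CD157-CD200- and 2 between CD157-CD200+ and CD157-CD200-.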

How the data were processed

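Amplified RNA was labelled with Cy3 and hybridised to 15 one-colour Agilent arrays, per the labels' protocols. The deposited intensity values are spot signals of Agilent Feature Extraction, background-subtracted by the software and not scaled between arrays, per the file headers (version 10.10.1.1 for EC-SP and EC-MP, 11.5.1.1 for the subsets). The authors' deposited series table holds the same signals times 1 constant per array (5.46 to 10.1), of unstated basis. The medians of its columns are 256.5, 299.6 and 286.1 in EC-SP, 299.5, 331.2 and 335.4 in EC-MP, 255.8, 278.4 and 252.3 in CD157+CD200+, 265.0, 293.0 and 262.8 in CD157-CD200+, and 218.3, 296.6 and 238.5 in CD157-CD200-.

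Each signal was taken as log2 minus that of the array's 75th percentile (157 to 298). From 110 to 213 outlier spots per array were left out, as were control spots, and no spot was saturated. Features (1 probe per named gene, every region probe and other probe) were kept where every array of some group detected them well above background. Differences were fitted with limma 3.58.1 in R 4.3.3 (lmFit, eBayes), the 6 arrays of EC-SP and EC-MP apart from the 9 subset arrays, with Benjamini-Hochberg adjustment. The scripts were tested on simulated data. The number of arrays limits the precision.

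Replicate numbers are also slides and scans. Same-numbered samples deviated together (r = 0.26 to 0.32 between EC-SP and EC-MP, 0.25 to 0.61 among subsets), so the numbers pair the samples, and the block is a slide block too. Normexp used median spot and background signals with an offset of 50. Other alternatives were quantile normalisation, other percentiles, the series table, filters, and leaving out each array. The sign-flip test over same-numbered arrays was added after seeing the data.

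Named items are the 8 brightest region probes, up to 6 called probes per direction and comparison whose direction was shared by the 3 same-numbered pairs (at most 2 per locus), the 4 loci with most calls, and up to 6 called noncoding genes. Regions of chromosome 18 were counted but not named. Strand pairs picked by level are given by detection alone. Members and lists were chosen with earlier results of these data known.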

Additional observations from a re-analysis of the deposited data

How the results depend on the processing

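Of 66 named values, 46 stayed past the threshold in every alternative run for them, 20 lost it in at least 1, and 0 reversed. The cause of the changes below was not tested. With the replicate block, 1800 were called between EC-SP and EC-MP, 19.1% of those tested against 20.6% of all features. It called 1886 between CD157+CD200+ and CD157-CD200-, 106 between CD157+CD200+ and CD157-CD200+, and 1439 between CD157-CD200+ and CD157-CD200-. The block also gave 4 and 2 called noncoding genes in the second and the last comparison, and the fit without it gave 0. With no filter on dim probes 668, 8 and 424 were called in the first, the third and the last comparison, and 3 noncoding genes in the first. All 16194 region probes were then tested, so these were 4.12%, 0.049% and 2.62%, against 5.20%, 0.248% and 4.61% of all features. With 1 probe per region, an alternative chosen after seeing the data, the 4 counts were 420, 303, 7 and 221. Fewer region probes were then tested, 3679 in the first comparison and 3550 in the others. The shares called were 11.4%, 8.54%, 0.197% and 6.23%, against 16.7%, 15.1%, 1.05% and 11.8% of all features. Only probes detected on every array gave 6 between CD157+CD200+ and CD157-CD200+, 0.084% of those tested against 0.587% of all features. Every probe of a named gene gave 1 noncoding gene in the second comparison and 1 in the last, where normexp also gave 1. The median level of the region probes differed between EC-SP and EC-MP by -0.11, by 0.0059 with normexp and by -0.29 in the series table, and between CD157+CD200+ and CD157-CD200+ by -0.09, and by 0.012 with normexp. Leaving out each array gave 888 to 1095, 612 to 815, 1 to 21 and 393 to 680 called region probes in the 4 comparisons, and 2 to 4, 0 to 1, 0 to 0 and 0 to 1 noncoding genes. Over all features the shares called were then 10.4% to 12.8%, 9.70% to 12.7%, 0.249% to 0.841% and 7.25% to 10.2%. Signal over background limits the comparison, since 17.6% of region probes were detected on no array.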
